A study of Mus musculus with 26 samples.

Results

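The 56 genes described here encode transcription factors that pattern the embryo, and they were chosen by symbol from the homeobox, T-box, Pax, Sox, Gata and forkhead families. All 56 were found among the 26264 gene symbols of the deposited table. By their known roles, 30 act mainly in limb and skeletal patterning, 16 in the nervous system and sense organs, and 10 in heart, endoderm and blood. They were proposed as genes that Polycomb binds. The H2AK119ub1 profiles of the series were not analysed here, so whether these genes carried the mark in these cells was not measured, and they are called developmental transcription factors below.

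Polycomb complexes keep developmental transcription factors silent in cells that do not need them. PRC1 places ubiquitin on histone H2A (H2AK119ub1), and the variant complex PRC1.1 is brought to DNA by KDM2B, whose CxxC domain binds unmethylated CG dinucleotides. Skeletal cells of the limb are known to keep part of their embryonic patterning program, so some of these factors are active in adult bone cells while others stay off.

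RNA was sequenced in 18 libraries of cultured mouse femoral osteoblasts, the cells that make bone matrix, in 6 groups of 3. CKO-OLD and CKO-YOUNG cells came from Kdm2b fl/fl mice with Ocn-cre, a driver active in mature osteoblasts, and the Ai14 reporter. Only the CxxC domain of Kdm2b was deleted in them, and the cells were screened after isolation. CON-OLD-iBP is labelled as an old control that received iBP, a code name the labels do not expand. CON-YOUNG cells came from Ocn-cre Ai14 mice without the floxed allele. OLD and YOUNG cells were taken from C57BL/6J mice aged 18 and 3 months, with no driver or reporter named. The labels give the age of the CKO and CON groups as old or young only. An untreated old control with the driver is not among the groups used here, so CKO-OLD and CON-OLD-iBP were set against OLD, and mouse line then differed together with genotype or treatment. The labels give no sex, and the sex-linked transcripts described below differed between these groups too. Whether replicates are separate animals or cultures is not stated in the labels, so p-values describe the spread among these libraries alone, and that spread may be technical.

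Library totals ran from 46.27 to 77.7 in units of 1e6 counts, so a single count was worth 0.0127 to 0.0203 counts per 1e6 (CPM). The libraries were put into 3 sets, the third by its Malat1 share and the other two by group label. A set of 10 libraries, with 0.0957% to 0.223% of counts in Malat1, a long noncoding RNA, held each CKO-OLD library, each CON-OLD-iBP library, replicate 3 of CKO-YOUNG, CON-YOUNG and YOUNG and replicate 2 of OLD, and is called set 3. The other OLD and YOUNG libraries (set 1) carried 0.870% to 1.35% of counts in 12 macrophage markers, against 0.0121% to 0.0168% in the other CKO-YOUNG and CON-YOUNG libraries (set 2) and 0.0425% to 0.557% in set 3. The osteoblast genes Runx2 and Sp7 were at 25.6 CPM or more in every library. Bglap (osteocalcin), the gene whose promoter drives the Cre, showed 0.152, 0 and 0.306 CPM in CKO-YOUNG, 0.150, 0 and 9.89 CPM in CON-YOUNG and 25.2 CPM or more in the other 12 libraries. Markers of skeletal muscle took at most 0.00358% of counts in any library, those of T cells at most 8.2e-05% and those of blood progenitors and red cells at most 0.000647%, with Kit, a receptor of blood progenitors, reaching 7.00 CPM in CON-YOUNG 1.

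Sex-linked transcripts followed the sets and so the groups. Xist, made from the inactive X of female cells, was at 391 to 481 CPM in the 4 libraries of set 1 (OLD 1, OLD 3, YOUNG 1 and YOUNG 2), which had no counts of the Y-linked gene Ddx3y. CKO-YOUNG 3 carried both, with 372 CPM of Xist and 21.3 CPM of Ddx3y. The other 13 libraries, among them all of CKO-OLD, CON-OLD-iBP and CON-YOUNG, had at most 0.404 CPM of Xist and 36.2 CPM or more of Ddx3y. Sex is therefore mixed with mouse line, genotype and treatment wherever a group with the driver, the deletion or iBP is set against OLD or YOUNG, where only OLD 2 and YOUNG 3 match it in these transcripts. OLD and YOUNG each hold 2 libraries high in Xist and 1 with Ddx3y. The fit without set 1, given below, leaves out the libraries with no Ddx3y.

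Kdm2b, the targeted gene, had 23.4, 57.2 and 28.4 CPM in CKO-OLD, against 34.3, 19.3 and 31.1 CPM in OLD. In young cells it had 51.5, 58.2 and 27.6 CPM in CKO-YOUNG, against 48.8, 52.9 and 19.9 CPM in CON-YOUNG. The groups overlapped at both ages. A count that sums every exon cannot show the loss of the exons of its CxxC domain, so these values do not check the deletion.

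Promoter sequences are shown for the 4 factors on which the comparisons below turn most, with each CG in capitals, because CG is the dinucleotide the CxxC domain binds. Each is the 250 bases before the annotated start, read 5′ to 3′ on the gene's strand, from RefSeq on GRCm38.p6. Barx1 lies on the plus strand (chr13:48662786-48663035), Nkx3-2 on the minus strand (chr5:41764221-41764470), Sox11 on the minus strand (chr12:27342719-27342968) and Tbx4 on the plus strand (chr11:85896515-85896764).
Barx1: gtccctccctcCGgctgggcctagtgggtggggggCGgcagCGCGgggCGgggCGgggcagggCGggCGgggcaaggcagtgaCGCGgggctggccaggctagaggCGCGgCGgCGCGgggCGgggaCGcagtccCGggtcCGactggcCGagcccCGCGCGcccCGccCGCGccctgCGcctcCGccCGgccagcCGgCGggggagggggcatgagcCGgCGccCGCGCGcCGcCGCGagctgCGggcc
Nkx3-2: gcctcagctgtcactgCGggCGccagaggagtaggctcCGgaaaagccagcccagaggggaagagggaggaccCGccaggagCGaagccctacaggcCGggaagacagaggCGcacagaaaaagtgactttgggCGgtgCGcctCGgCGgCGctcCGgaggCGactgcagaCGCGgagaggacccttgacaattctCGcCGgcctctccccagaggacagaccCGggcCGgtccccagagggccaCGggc
Sox11: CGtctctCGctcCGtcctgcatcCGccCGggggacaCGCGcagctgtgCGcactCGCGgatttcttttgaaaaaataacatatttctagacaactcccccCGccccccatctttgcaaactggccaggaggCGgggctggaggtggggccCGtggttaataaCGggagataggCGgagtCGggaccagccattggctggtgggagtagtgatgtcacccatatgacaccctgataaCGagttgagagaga
Tbx4: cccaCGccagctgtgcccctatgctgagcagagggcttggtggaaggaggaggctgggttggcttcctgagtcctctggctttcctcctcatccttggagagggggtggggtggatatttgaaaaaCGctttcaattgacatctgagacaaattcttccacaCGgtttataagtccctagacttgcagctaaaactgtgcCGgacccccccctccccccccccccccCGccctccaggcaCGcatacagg
CG, which reads the same on both strands, occurred 40 times in the 250 bases of Barx1, 21 times in Nkx3-2, 17 times in Sox11 and 6 times in Tbx4. Over the RefSeq window of 300 bases, which runs on past the start, Barx1 had 50 CG, a number that 0.855% of all promoter entries of the same source reach. Nkx3-2 had 25 (reached by 18.4%), Sox11 21 (24.8%) and Tbx4 8 (48.7%). A promoter was matched for 39 of the 56 factors, which is under 80%, so a check of CG content over the whole group is void.

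In these femoral osteoblasts the limb and skeletal factors were mostly detected and the neural factors mostly near silent. Of the 30 limb and skeletal factors, 13 were at 1 CPM or more in all 18 libraries. Among the 16 neural and sensory factors 1 reached that level throughout, Emx2, which patterns the cortex and urogenital tract and also the limb girdles. Of the 10 heart, endoderm and blood factors it was Gata2 alone, a regulator of blood stem cells. The 8 factors with the highest mean CPM all belonged to the limb and skeletal group. In order these were Tbx15, Foxc1, Irx3, Shox2, Foxc2, Tbx18, Pitx1 and Irx5. CPM is not divided by transcript length, so this order ranks reads and not transcripts.

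Tbx15, a T-box factor needed for skeletal size, had 124, 118 and 151 CPM in CKO-OLD, 105, 106 and 165 in CON-OLD-iBP and 74.4, 124 and 69.3 in OLD. In the young groups it had 108, 97.3 and 111 CPM in CKO-YOUNG, 127, 118 and 89.2 in CON-YOUNG and 81.8, 96.7 and 119 in YOUNG. Its groups overlapped in all 6 comparisons between groups. Pitx1, the homeobox factor that gives the hindlimb its identity, ranged from 8.38 CPM in CON-YOUNG 3 to 83.1 CPM in CKO-OLD 3. Shox2, which drives growth of the proximal limb bones, ranged from 33.9 CPM in CON-OLD-iBP 1 to 115 CPM in CKO-YOUNG 3. Irx3 and Irx5, Iroquois neighbours on chromosome 8 with roles in limb and digit patterning, ranged from 35.4 to 145 CPM and from 14.5 to 42.5 CPM. The lowest value of both was in CON-YOUNG 3 and the highest value of Irx3 in CKO-YOUNG 2.

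At the other end, 16 of the 56 factors (28.6%) were near silent in the control libraries, meaning under 0.5 CPM in every library of YOUNG, OLD and CON-YOUNG. Among all 26264 gene symbols 11081 were (42.2%). Of the 53 factors with any count 13 were near silent (24.5%), against 5649 of the 20832 genes with any count (27.1%), a share close to the background. They were unevenly spread over the roles, with 11 of 16 neural and sensory factors, 4 of 10 heart, endoderm and blood factors and 1 of 30 limb and skeletal factors (Barx2). Pax7 (muscle stem cells), Otx2 (forebrain and eye) and Sox17 (endoderm and endothelium) had no counts in any library. Beyond the controls, 13 of the 56 stayed under 0.5 CPM in all 18 libraries. Of the 16 near-silent factors, 2 reached 1 CPM in at least 2 libraries of the CKO or iBP groups: Sox2, a factor of neural progenitors, and Pax6, the regulator of eye and forebrain. The number of factors at 1 CPM or more in every library of a group was 29 in CKO-OLD, 24 in CON-OLD-iBP, 22 in OLD, 25 in CKO-YOUNG, 18 in CON-YOUNG and 17 in YOUNG.

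**Figure D1:**
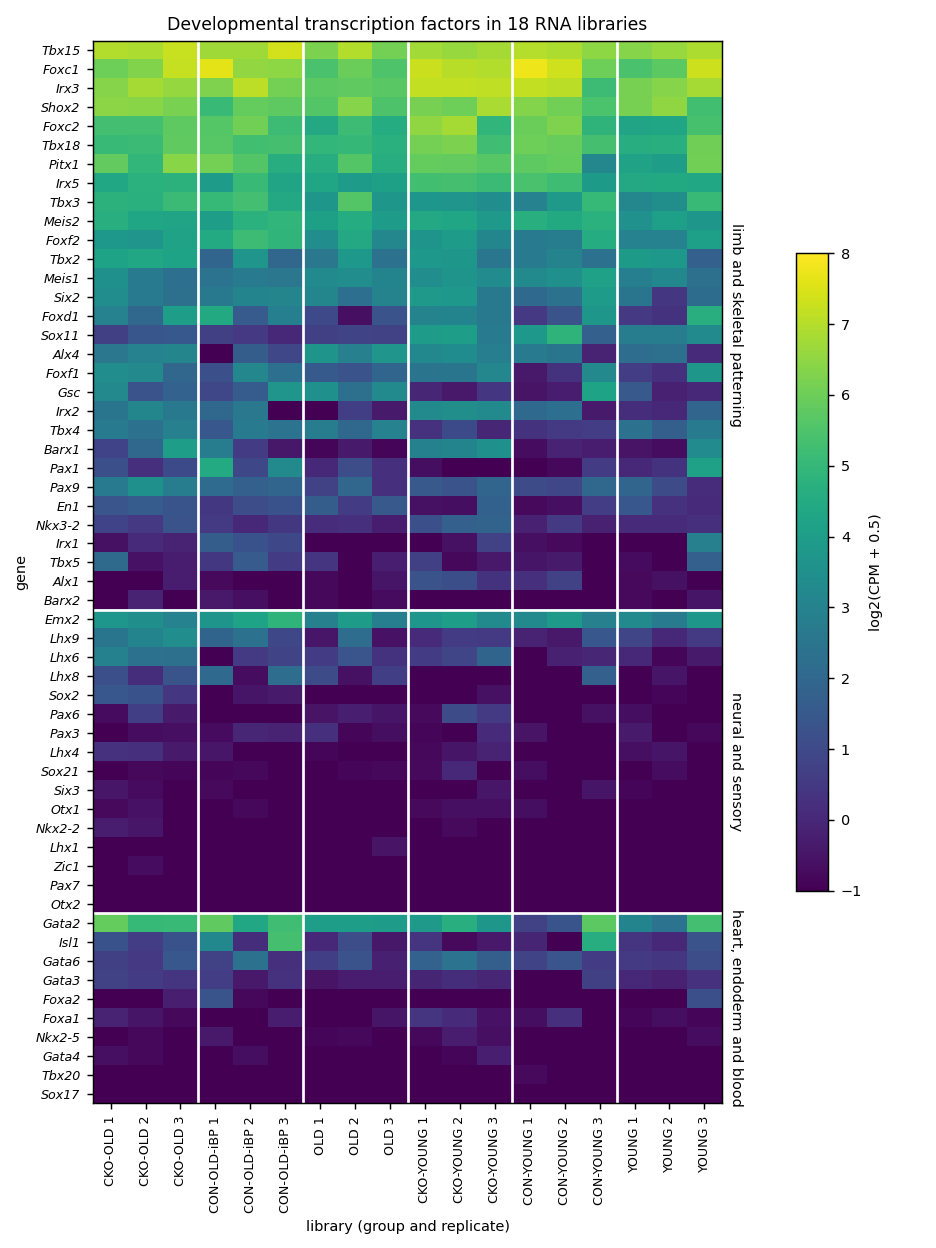
Level of each of the 56 factors (down the page, by role and then by mean level) in each of the 18 libraries (across), as log2(CPM + 0.5) by colour. The limb and skeletal block is bright at its top in every library, the neural block is dark below Emx2 in most of them, and Isl1 is brightest in CON-OLD-iBP 3 (39.7 CPM) and CON-YOUNG 3 (23.7 CPM).

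The question behind the knockout is whether loss of the KDM2B CxxC domain changes gene expression in osteoblasts. Of the 56 factors, 45 passed the filter on low counts and were tested. In CKO-YOUNG against CON-YOUNG no factor passed the adjusted threshold of 0.05 in edgeR's quasi-likelihood test. An unadjusted p under it was found for 6, 3 higher and 3 lower (13.3% of the 45, against 5.48% of all genes tested). DESeq2 called 3 (1.43% of all genes), Barx1 and Nkx3-2 higher and Lhx8 lower. Lhx8 had no counts in CKO-YOUNG and, within CON-YOUNG, counts in CON-YOUNG 3 alone (161). Among all genes, 0.127% were called in edgeR. The CKO-YOUNG libraries lay above all CON-YOUNG libraries for 7 factors (5.32% of all genes did so) and below them for 1, Meis2 (3.19% of all genes). The fitted log2 fold change was positive for 29 of the 45 (47.5% of all genes), with a median of 0.42 against -0.01 for all genes. Without CON-YOUNG 3 the median was 0.76, and with the replicate number as a block it was 0.67, with 3 of 35 factors at an unadjusted p under 0.05. These counts are descriptive, because a low gene can pass the filter through its higher group alone. In bulk RNA fewer cells of a type and less RNA per cell cannot be told apart.

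Barx1, a homeobox factor of craniofacial mesenchyme and developing joints, was far apart between the young groups. It had 7.27, 7.93 and 11.0 CPM in CKO-YOUNG, while CON-YOUNG had 0.117, 0.441 and 0.305 CPM. The lowest CKO-YOUNG library was thus far above the highest CON-YOUNG library, in set 2 and in set 3 alike. The log2 fold change was 4.92 (SE 1.64) with an adjusted p of 0.558 in edgeR, and DESeq2 gave 4.93 with an adjusted p of 0.0118. In old cells Barx1 had 1.27, 3.56 and 15.9 CPM in CKO-OLD, against 0.0579, 0.283 and 0.0597 CPM in OLD. These groups did not overlap either (log2 fold change 5.70, SE 1.71, adjusted p 0.426). Barx1 was not silent in every library without the deletion, however, with 9.66 CPM in YOUNG 3 and 6.43 CPM in CON-OLD-iBP 1. Those libraries and CKO-OLD 3 were the 3 with the most counts in chondrocyte markers, 1.45%, 1.09% and 1.08%, and the part of these cells in the Barx1 values was not tested. In CKO-YOUNG, chondrocyte markers took 0.135%, 0.125% and 0.0508% of counts, against 0.0928%, 0.0564% and 0.473% in CON-YOUNG. The ranges overlapped, with the share higher in CKO-YOUNG within set 2 and lower within set 3.

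Averaged over both ages, with CKO-YOUNG against CON-YOUNG and CKO-OLD against OLD given equal weight, Barx1 came closest to the threshold of all 45 factors. It averaged 7.83 ± 5.24 CPM in the 6 CKO libraries and 0.211 ± 0.156 CPM in the 6 control libraries (SD), and its log2 fold change was 5.31 (SE 1.18) with an adjusted p of 0.0696. Fitted on the compared groups alone its adjusted p was 0.0110. No factor passed in this contrast, in which 0.531% of all genes did. At an unadjusted p under 0.05 there were 12 factors (26.7% of the 45, against 8.38% of all genes), 10 higher and 2 lower. DESeq2 called 6 (2.51% of all genes), Barx1, Nkx3-2, Lhx4, Irx1 and Sox2 higher and Lhx8 lower. Lhx4, Irx1, Sox2 and Lhx8 each had no counts in at least 1 of the groups compared. Without set 1 there were 7 of 50 at an unadjusted p under 0.05. Libraries of the CKO groups lay above all control libraries for 3 factors, Barx1, Irx2 and Lhx4, against 0.948% of all genes. They lay below all control libraries for none, against 0.115% of all genes. For Lhx4 the gap lay between 4 counts in CKO-YOUNG 1 (0.0676 CPM) and 4 counts in OLD 1 (0.0579 CPM), so it rests on library size alone. Of the 45 factors, 37 had a positive log2 fold change (46.3% of all genes), with a median of 0.64 against -0.03 for all genes.

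Nkx3-2, a repressor that acts in cartilage and axial skeletal patterning, was also higher without overlap at both ages. It had 1.81, 2.88 and 3.14 CPM in CKO-YOUNG, against 0.384, 0.956 and 0.395 CPM in CON-YOUNG (log2 fold change 2.17, SE 0.53, adjusted p 0.235). In old cells it had 1.27, 0.911 and 1.95 CPM in CKO-OLD, against 0.608, 0.690 and 0.328 CPM in OLD (log2 fold change 1.34, SE 0.52, adjusted p 0.560). YOUNG stood at 0.546, 0.565 and 0.657 CPM, so all 9 libraries of the YOUNG, OLD and CON-YOUNG groups were under 1 CPM. Without CON-YOUNG 2, the highest of those 9, the log2 fold change over both ages was 2.04 with an adjusted p of 0.0406.

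Irx2, an Iroquois factor with roles in limb and neural patterning, had 9.10, 10.4 and 9.15 CPM in CKO-YOUNG, against 3.67, 4.34 and 0.287 CPM in CON-YOUNG. CKO-OLD had 5.09, 8.25 and 5.75 CPM, against 0, 1.08 and 0.284 CPM in OLD. Both CKO groups lay above their controls in every library, while the 3 CON-OLD-iBP libraries were scattered at 3.56, 5.54 and 0 CPM. Over both ages the log2 fold change was 2.80 (SE 1.05) with an adjusted p of 0.413.

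Lhx4 and Lhx6 are LIM homeobox factors, of the pituitary and spinal cord and of forebrain interneurons and the jaw. Lhx4 was low everywhere, with 0.0676, 0.212 and 0.423 CPM in CKO-YOUNG against no counts in CON-YOUNG, at least 13.3-fold higher when CON-YOUNG is set at a floor of 3 counts over the group. CKO-OLD had 0.704, 0.683 and 0.286 CPM of it, against 0.0579, 0 and 0 CPM in OLD. Over both ages its adjusted p was 0.178. Its level in YOUNG, 0.152, 0.217 and 0 CPM, overlapped that of CKO-YOUNG. Lhx6 had 0.981, 1.32 and 3.20 CPM in CKO-YOUNG, while CON-YOUNG had 0, 0.386 and 0.484 CPM (log2 fold change 2.66, SE 1.31, adjusted p 0.941). In CKO-OLD it reached 7.34, 4.75 and 4.47 CPM, against 1.01, 2.10 and 0.746 CPM in OLD (log2 fold change 2.10, SE 1.26, adjusted p 0.695). The groups were apart at both ages for Lhx6 and Lhx4, and neither passed the test.

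**Figure D2:**
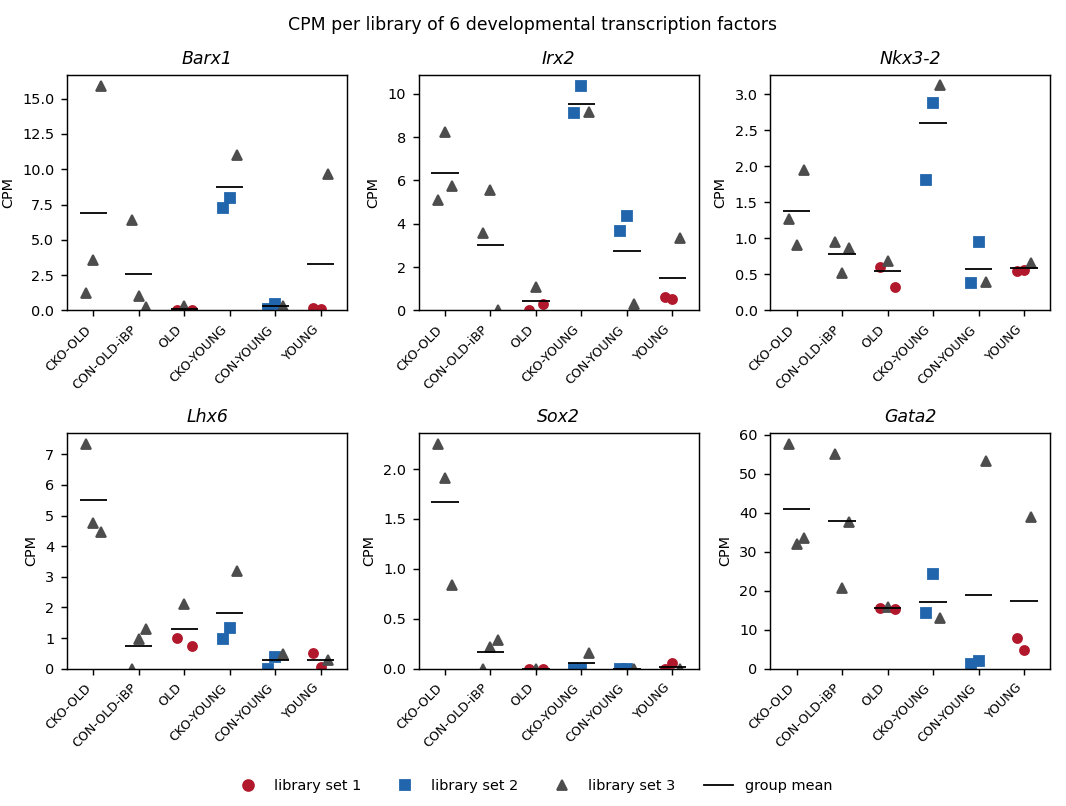
CPM per library of 6 factors in the 6 groups, with marker shape and colour for the library set and a line for the group mean. Barx1, Irx2 and Nkx3-2 sit higher in CKO-OLD than in OLD and higher in CKO-YOUNG than in CON-YOUNG in every library, Lhx6 and Sox2 are highest in CKO-OLD, and the 3 Gata2 values of CON-YOUNG run from 1.19 to 53.3 CPM.

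In CKO-OLD against OLD more factors lay apart than in young cells. The CKO-OLD libraries were above all OLD libraries for 19 of the 45 factors, against 8.9% of all genes tested, and below them for none, against 8.47% of all genes. The 19 included 13 limb and skeletal, 4 neural and sensory and 2 blood factors, among them 4 Iroquois genes (Irx1, Irx2, Irx3 and Irx5) and 4 forkhead genes (Foxc1, Foxc2, Foxd1 and Foxf1). Positive log2 fold changes were fitted for 41 of the 45 (48.2% of all genes), with a median of 0.84 against -0.01 for all genes, and for 45 of the 53 factors with any count when no filter was used. No factor passed the adjusted threshold in edgeR (0.00604% of all genes did). An unadjusted p under 0.05 was found for 10, against 8.16% of all genes. All 10 were higher in CKO-OLD (3.84% of all genes were higher at that level). DESeq2 called 4 (1.1% of all genes), Pax9, Barx1, Irx1 and Foxa2. Irx1 and Foxa2 had no counts in OLD, and Foxa2 had counts in CKO-OLD 3 alone (19). All CKO-OLD libraries belong to set 3, which holds 1 OLD library, OLD 2. With library set as a term the median of the factors was 0.49, 34 of 45 were positive and 3 had an unadjusted p under 0.05. Without set 1, which leaves OLD 2 as the lone OLD library, the median was 0.76 and 38 of 50 were positive. Without CKO-OLD 3 the median was 0.55. The number at an unadjusted p under 0.05 was 5 without OLD 1, 4 without OLD 3 and 6 without CKO-OLD 2. The share of all genes at that level was not computed in these fits, so a fall shared by all genes cannot be told apart. Marker genes of other cell types were set beside these values. The fitted log2 fold change was negative for 12 of 12 macrophage markers (median -1.77), which took 0.126% to 0.557% of counts in CKO-OLD and 0.130% to 0.965% in OLD. Of 6 chondrocyte markers 5 were positive (median 4.23, 2 without overlap), with 0.0421% to 1.08% of counts in CKO-OLD and 0.0720% to 0.112% in OLD. None of these markers passed the adjusted threshold, and the part of these cells and of sex in the factors' values was not tested. The test of whether the CKO effect differed between ages called no factor in edgeR, and 3 had an unadjusted p under 0.05 (Pax9, Lhx8 and Isl1), against 4.81% of all genes.

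Pax9, a paired-box factor of the axial skeleton, limbs and teeth, had 6.21, 10.8 and 6.54 CPM in CKO-OLD, against 1.22, 3.40 and 0.657 CPM in OLD. The groups did not overlap, and the log2 fold change was 2.16 (SE 0.65, adjusted p 0.426). In young cells its groups overlapped, with 2.35, 2.00 and 3.36 CPM in CKO-YOUNG, against 1.65, 1.38 and 3.64 CPM in CON-YOUNG. Lhx9, a LIM homeobox factor of gonad and limb, had 5.19, 7.79 and 10.0 CPM in CKO-OLD, against 0.232, 4.16 and 0.179 CPM in OLD. The groups were apart, OLD 2 stood well above the other OLD libraries, and without OLD 2 Lhx9 was called (log2 fold change 5.21, adjusted p 0.0460).

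Sox2 was seen almost only in CKO-OLD, with 2.25, 1.91 and 0.840 CPM (268 counts in all), against no counts in OLD. That is at least 107-fold higher when OLD is given 3 counts in all as its floor, with an adjusted p of 0.399 in edgeR. No library outside CKO-OLD passed 0.284 CPM, the value in CON-OLD-iBP 3. Sox2 lies inside the long noncoding gene Sox2ot, and without known strand their reads cannot be told apart. Of 3 markers of Schwann cells, the glia of peripheral nerve, which can express Sox2, 1 was apart between the same groups. Sox10 had 6.76, 5.04 and 1.88 CPM in CKO-OLD, against 0.101, 0.212 and 0 CPM in OLD. Erbb3 had 2.01, 2.43 and 0.857 CPM in CKO-OLD, against 1.41, 0.354 and 0.761 CPM in OLD, and S100b had 9.85, 13.3 and 54.6 CPM in CKO-OLD, against 14.4, 9.30 and 15.8 CPM in OLD, so both overlapped. The part of Schwann cells in the Sox2 values was not tested.

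Gata2 and Gata3, zinc-finger factors of blood stem cells and T cells, turned on a single control library. Gata2 had 14.3, 24.3 and 13.1 CPM in CKO-YOUNG, against 1.19, 2.04 and 53.3 CPM in CON-YOUNG. It had 57.8, 31.9 and 33.5 CPM in CKO-OLD, against 15.5, 15.7 and 15.3 CPM in OLD. The young groups overlapped through CON-YOUNG 3 alone, and the old groups did not overlap. Without CON-YOUNG 3, Gata2 passed over both ages (log2 fold change 2.41, adjusted p 0.0428), and with it the adjusted p was 0.903. Gata3 had 0.457, 0.636 and 0.481 CPM in CKO-YOUNG, against 0, 0 and 1.15 CPM in CON-YOUNG. Its adjusted p in CKO-YOUNG against CON-YOUNG was 0.0193 without CON-YOUNG 3, which leaves CON-YOUNG with no Gata3 counts. With CON-YOUNG 3 it was not called. Within set 3, CKO-YOUNG 3 lay below CON-YOUNG 3 for both Gata2 and Gata3.

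CON-YOUNG 3 stood apart from its group for other factors too. Isl1, a LIM homeobox factor of heart and hindlimb progenitors, was at 23.7 CPM there, against 0.451 and 0 CPM in the other CON-YOUNG libraries. Gsc, a factor of the organizer, jaw and limb, was at 18.3 CPM, against 0.200 and 0.313 CPM in the other two. In the opposite direction, Pitx1 was at 8.38 CPM, against 53.4 and 57.9 CPM, and Irx3 at 35.4 CPM, against 143 and 132 CPM. CON-YOUNG 3 is the CON-YOUNG library that falls in set 3, as YOUNG 3 does in its group.

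iBP was tested in old cells. CON-OLD-iBP and CKO-OLD were both set against the same 3 OLD libraries, so the 2 comparisons are not independent. CON-OLD-iBP lay above all OLD libraries for 9 of the 45 factors (14.3% of all genes) and below them for 3 (15.8% of all genes), so these counts were near the background. The log2 fold change was positive for 34 of the 45 (50.1% of all genes), with a median of 0.93, or 0.82 with genes at 0 in one group set at their bound, against 0.00 for all genes. The fitted median was 0.41 with library set as a term, 0.56 without set 1, 0.54 without OLD 3, 0.61 without CON-OLD-iBP 1 and 0.62 without CON-OLD-iBP 2. No factor was called by edgeR (0.0241% of all genes were), and 13 had an unadjusted p under 0.05 (28.9%, against 23.4% of all genes). That number fell to 5 with library set as a term, 3 without OLD 1 and 4 without OLD 3. The share of all genes at that level was not computed in these fits, so a fall shared by all genes cannot be told apart. DESeq2 called 7 (13.6% of all genes), among them Irx1 and Foxa2, with no counts in OLD, and Pax6, with none in CON-OLD-iBP. Without OLD 2, edgeR called 2 factors (7.87% of all genes), Lhx9 (adjusted p 0.0265) and Emx2 (0.0481), both higher in CON-OLD-iBP, a share under the background. All 12 macrophage markers had a negative log2 fold change (median -3.70, 7 without overlap), at 0.0457% to 0.0894% of counts in CON-OLD-iBP and 0.130% to 0.965% in OLD. All 6 chondrocyte markers were positive (median 4.71, 1 without overlap), at 0.0778% to 1.09% in CON-OLD-iBP and 0.0720% to 0.112% in OLD. None of the 18 passed the adjusted threshold, and their part and that of sex in the factors' values was not tested.

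Irx1, the Iroquois neighbour of Irx2, had 2.63, 1.89 and 1.42 CPM in CON-OLD-iBP, against no counts in OLD, at least 127-fold higher with the same floor for OLD (adjusted p 0.103). Foxc1, a forkhead factor of skull, eye and endochondral bone, had 200, 93.2 and 89.1 CPM in CON-OLD-iBP, against 42.3, 62.0 and 45.6 CPM in OLD (log2 fold change 1.35, SE 0.53, adjusted p 0.145). Neither gene overlapped between the groups. For CKO-OLD against OLD the same genes had 0.161, 0.578 and 0.411 CPM and 63.8, 79.0 and 146 CPM in CKO-OLD. Alx4, a paired-like factor of skull and limb, was lower, with 0, 2.64 and 1.38 CPM in CON-OLD-iBP, against 12.2, 7.13 and 12.5 CPM in OLD (log2 fold change -2.98, SE 1.16, adjusted p 0.141). CKO-OLD kept 5.45, 7.36 and 8.06 CPM of Alx4, which overlapped OLD. Pax6 had no counts in CON-OLD-iBP, against 0.188, 0.336 and 0.209 CPM in OLD, at least 12.5-fold lower.

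The 2 groups that lie wholly in set 3 are CKO-OLD and CON-OLD-iBP, which differ in both genotype and treatment. CKO-OLD libraries were above all CON-OLD-iBP libraries for 10 factors (16% of all genes) and below them for 2, Irx1 and Foxf2 (14.5% of all genes). The log2 fold change was positive for 26 of the 45 (8444 of the 16566 genes tested). The median of the factors was 0.15, against 0.01 for all genes. Here 1.29% of all genes were called in edgeR and no factor, while 5 factors had an unadjusted p under 0.05 (11.1% of the 45, against 19.6% of all genes) and DESeq2 called 1 (9% of all genes). That number was 1 to 5 when single libraries were left out, with 1 without CKO-OLD 2 and 3 without CKO-OLD 1, CKO-OLD 3, CON-OLD-iBP 1 or CON-OLD-iBP 3. All 12 macrophage markers were higher in CKO-OLD in the fit (median 1.84, 9 without overlap) and none passed. Tbx2, a T-box repressor that shapes the limb margins, had 18.1, 20.3 and 18.2 CPM in CKO-OLD, against 3.33, 12.5 and 3.45 CPM in CON-OLD-iBP (log2 fold change 1.55, SE 0.63, adjusted p 0.191). Shox2 had 85.7, 83.4 and 72.5 CPM in CKO-OLD, against 33.9, 57.5 and 53.7 CPM in CON-OLD-iBP (log2 fold change 0.74, SE 0.34, adjusted p 0.254). For both genes the groups did not overlap. When the spread was estimated within library sets, 5 factors passed (11.1%, under the 18.7% of all genes), with Tbx2 (adjusted p 0.0241), Shox2 (0.0181) and Pax9 (0.0374) higher in CKO-OLD and Foxf2 (0.00627) and Pax1 (0.0422) lower. Lhx6 had 7.34, 4.75 and 4.47 CPM in CKO-OLD, against 0, 0.954 and 1.30 CPM in CON-OLD-iBP (adjusted p 0.238). Pax6 had 0.101, 1.09 and 0.286 CPM in CKO-OLD, against no counts in CON-OLD-iBP, at least 25.1-fold higher (adjusted p 0.118).

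**Figure D3:**
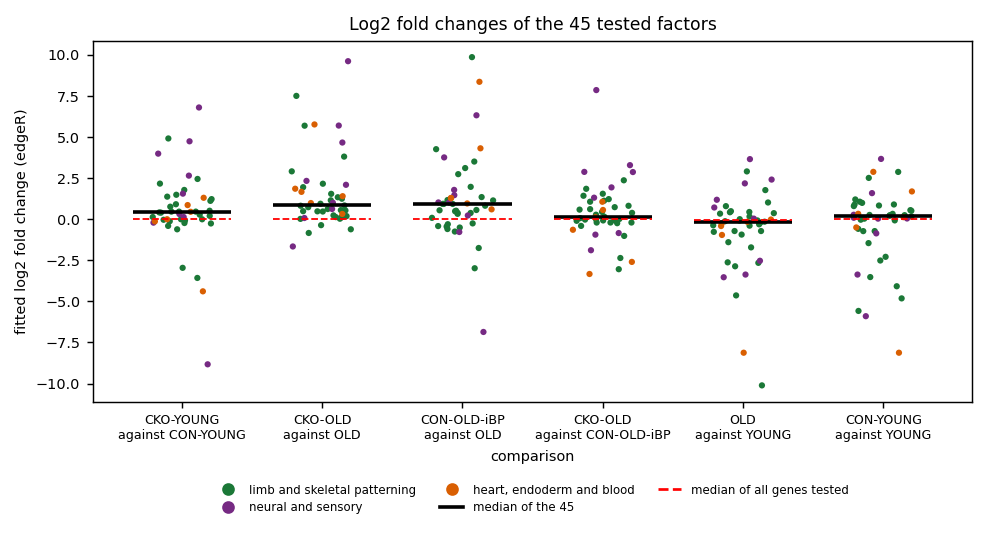
Fitted log2 fold changes (edgeR) of the 45 tested factors in 6 comparisons, coloured by role, with a black line for their median and a dashed line for the median of all genes tested. The factors' median is 0.84 in CKO-OLD against OLD and 0.93 in CON-OLD-iBP against OLD, which share the OLD libraries, and lies at -0.15 in OLD against YOUNG, where it turns to 0.33 without YOUNG 3. The points furthest from 0 are genes with no or few counts in a group, whose fitted values have no fixed size.

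Several factors followed single libraries and not groups. Pax1, a paired-box factor of the vertebral column, reached 22.3 and 9.39 CPM in CON-OLD-iBP 1 and 3 and 17.1 CPM in YOUNG 3, and was at most 1.79 CPM in the other 15 libraries. Foxa2, a forkhead factor of endoderm and notochord that lies next to Pax1 with no protein-coding gene between them, was at 2.02 CPM in CON-OLD-iBP 1, 1.78 CPM in YOUNG 3 and 0.339 CPM in CKO-OLD 3. It was at most 0.0734 CPM in every other library. Chondrocyte markers took 1.09%, 1.45% and 1.08% of counts in these same 3 libraries and at most 0.473% elsewhere, with Col9a1, a cartilage collagen gene, at 15.3, 28.9 and 8.57 CPM there and at most 0.664 CPM elsewhere. Irx1 was highest in YOUNG 3 as well, at 7.05 CPM, with none in the other YOUNG libraries. Isl1 followed another pattern, with 39.7 CPM in CON-OLD-iBP 3, 23.7 CPM in CON-YOUNG 3 and 8.61 CPM in CON-OLD-iBP 1. The part of cartilage cells in these values was not tested.

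**Figure D4:**
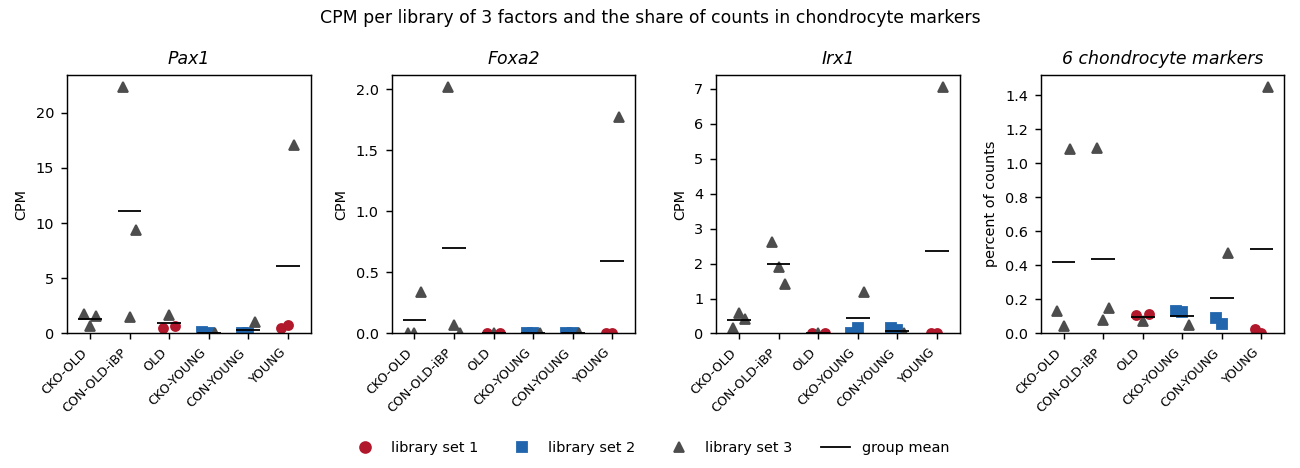
CPM per library of Pax1, Foxa2 and Irx1, and in the last panel the share of counts in 6 chondrocyte markers, in percent, with marker shape and colour for the library set. YOUNG 3 and CON-OLD-iBP 1 are high for Pax1, Foxa2 and the cartilage markers together, whereas Irx1 is at 1.42 CPM or more in all 3 CON-OLD-iBP libraries and in YOUNG 3 and at 1.20 CPM or less elsewhere.

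Ageing was examined by setting OLD against YOUNG. Of the 45 factors, 4 were higher in OLD without overlap (5.73% of all genes) and 4 lower (5.63% of all genes). No factor and no other gene was called by edgeR, 3 factors had an unadjusted p under 0.05 (6.67%, against 3.34% of all genes), and DESeq2 called 3 (0.249% of all genes). Those called by DESeq2 were Sox11, Irx1 and Foxa2. Irx1 (365 counts) and Foxa2 (92 counts) were found in YOUNG 3 alone among the OLD and YOUNG libraries, so these calls rest on 1 library. The median log2 fold change was -0.15, against -0.03 for all genes. Its direction rested on YOUNG 3, since without that library it was 0.33, with 28 of 47 factors positive, while it was -0.45 without OLD 2 and 0.00 without OLD 3. The number at an unadjusted p under 0.05 ran from 2 to 6 over these omissions. Gsc had 11.0, 4.46 and 9.34 CPM in OLD, against 2.38, 0.391 and 0.502 CPM in YOUNG (log2 fold change 2.91, SE 1.39). Irx3 had 52.5, 55.3 and 51.4 CPM in OLD, against 70.1, 82.6 and 109 CPM in YOUNG (log2 fold change -0.72, SE 0.38). Lhx6 had 1.01, 2.10 and 0.746 CPM in OLD, against 0.495, 0.0580 and 0.290 CPM in YOUNG. Each of these 3 had an adjusted p of 1.

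Sox11, an SRY-box factor of neural and mesenchymal progenitors, was the only factor whose old and young libraries did not overlap at all. It had 1.13, 1.31 and 1.16 CPM in OLD, against 6.59, 6.60 and 9.06 CPM in YOUNG (log2 fold change -2.62, SE 0.63, adjusted p 0.765). DESeq2 gave an adjusted p of 0.00929, and the fit within library sets gave 0.0257. A contrast of the 9 old against the 9 young libraries, averaged over the groups, was added after these values were seen and is not independent of them. It mixes age with mouse line, deletion and iBP. Across the old libraries Sox11 ran from 0.507 through a median of 1.13 to 2.29 CPM, and across the young libraries from 2.89 through 9.06 to 28.1 CPM, with no overlap. Sox11 fell in old cells by 3.16 on the log2 scale (SE 0.37), with an adjusted p of 0.00166. In this contrast 11.8% of all genes were called, 3.86% higher and 7.94% lower in old cells, and 3 factors were, Sox11 lower and Tbx4 and Lhx8 higher. At an unadjusted p under 0.05 there were 14 factors (31.1%, against 32% of all genes), and 8 to 20 when single libraries were left out. Sox11 was among 7 genes (0.0423% of all tested) lower in old cells without overlap. With library set as a term it remained called (log2 fold change -2.08, adjusted p 0.0114), and without the set 1 libraries its adjusted p was 0.157. Leaving out any single library kept Sox11 called, with adjusted p from 9.27e-06 to 0.00730. The number of factors called was less steady, with 15 of 47 when CON-YOUNG 3 was left out (28.9% of all genes) and 5 of 47 when CKO-YOUNG 3 was (23.7% of all genes).

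Tbx4, the T-box factor of hindlimb outgrowth, was the only factor called by edgeR in a comparison between single groups or in CKO over both ages, and it separated 2 control groups. It fell in CON-YOUNG, to 0.752, 0.938 and 1.06 CPM, against 4.66, 2.77 and 6.01 CPM in YOUNG (log2 fold change -2.29, SE 0.50, adjusted p 0.0186). In that comparison 5.55% of all genes were called, 3.83% lower in CON-YOUNG, and 7 factors had an unadjusted p under 0.05 (15.6%, against 23% of all genes). The groups did not overlap, as for 13% of all genes in the lower direction, and Tbx4 was likewise low in CKO-YOUNG, at 0.727, 1.55 and 0.467 CPM. With the replicate number as a block the adjusted p of Tbx4 was 0.150 and no gene was called. Leaving out single libraries moved it between 0.0160 and 0.108. Tbx4 was not called without YOUNG 1, CON-YOUNG 1 or CON-YOUNG 2, fits in which no gene at all was called. Without CON-YOUNG 3, 6 of 47 factors were called, under the 17.1% of all genes. Meis1 and Meis2, TALE cofactors of proximal limb patterning, had 12.5 ± 4.34 and 24.4 ± 2.36 CPM in CON-YOUNG and 6.71 ± 2.13 and 13.6 ± 2.70 CPM in YOUNG (SD, n = 3 each). They did not overlap, as for 10.1% of all genes in the higher direction, and had adjusted p-values of 0.133 and 0.0659 in edgeR. Macrophage markers took 0.0160% to 0.0425% of counts in CON-YOUNG and 0.304% to 1.35% in YOUNG, and all 12 were called lower in CON-YOUNG. Their part and that of sex in the Tbx4 and Meis values was not tested. YOUNG 3, the YOUNG library with Ddx3y and no high Xist, had 6.01 CPM of Tbx4, above all CON-YOUNG libraries.

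In the old groups Tbx4 stood at 6.05, 4.64 and 7.07 CPM in CKO-OLD, 2.22, 5.94 and 4.86 CPM in CON-OLD-iBP and 6.33, 3.54 and 7.51 CPM in OLD, all overlapping YOUNG. The contrast of old over young groups called it higher (log2 fold change 1.77, SE 0.28, adjusted p 0.00792). It was not called with library set as a term (0.109), within sets (0.0877) or without the set 1 libraries (0.245). Lhx8, a LIM homeobox factor of forebrain and teeth, was called higher in the same contrast (adjusted p 0.0462) through values of 0.110 to 4.14 CPM in old cells, with 7 of the 9 young libraries at 0 and CON-YOUNG 3 at 2.89 CPM. It was not called with the replicate block (adjusted p 0.0658), with library set as a term (0.287), within sets (0.314), without set 1 (0.332) or with no filter (0.0560). Leaving out single libraries kept the call in 3 of 18 cases, without CON-YOUNG 3, CON-OLD-iBP 2 or CKO-YOUNG 3, with adjusted p from 0.00288 to 0.0928 over all 18. Tbx2 lies beside Tbx4 with no protein-coding gene between them, and had 13.3, 12.9 and 5.35 CPM in CKO-YOUNG, 6.28, 7.63 and 4.70 CPM in CON-YOUNG and 14.4, 13.4 and 2.90 CPM in YOUNG, groups that overlap. Pitx1, known to act upstream of Tbx4 in the hindlimb, had 58.3, 56.6 and 50.5 CPM in CKO-YOUNG, 53.4, 57.9 and 8.38 CPM in CON-YOUNG and 17.8, 16.2 and 67.1 CPM in YOUNG. Its groups overlapped, and its order was not that of Tbx4.

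**Figure D5:**
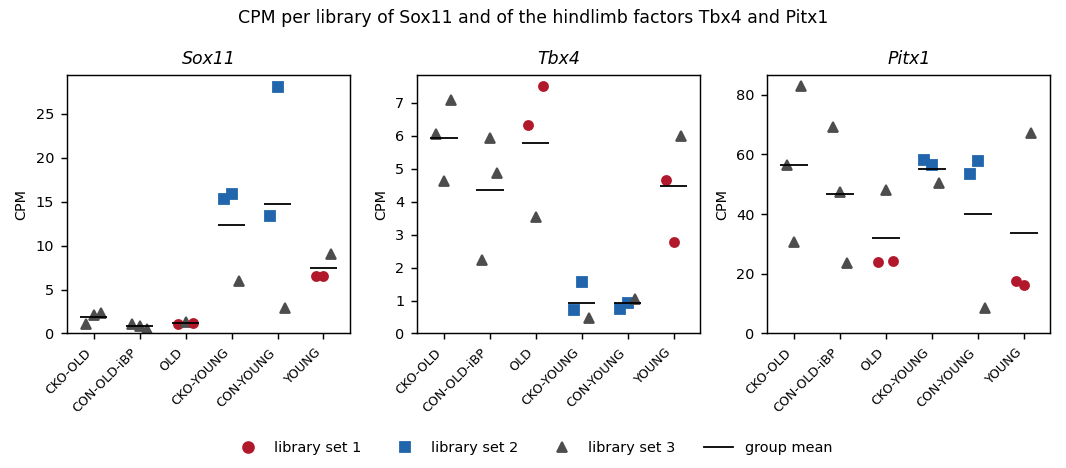
CPM per library of Sox11, Tbx4 and Pitx1 in the 6 groups, with marker shape and colour for the library set and a line for the group mean. All 9 old libraries lie at or under 2.29 CPM of Sox11 and all 9 young libraries at or over 2.89 CPM, while Tbx4 is low in CKO-YOUNG and CON-YOUNG and Pitx1 follows another order.

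Beside the 56, a list of 90 other developmental transcription factors was examined, of which 46 were tested. Over both ages 37 of them had a positive log2 fold change in CKO (46.3% of all genes), and 3 passed (0.531% of all genes). Lmx1b, the LIM homeobox factor of the dorsal limb, rose to 10.3 ± 2.83 CPM in CKO, against 1.83 ± 0.548 CPM in controls (SD, 6 libraries each; log2 fold change 2.53, adjusted p 0.00668). Lhx2, a limb bud and forebrain factor, had 14.7 ± 11.1 CPM in CKO and 1.55 ± 1.39 CPM in controls (adjusted p 0.0434). Foxl2, a forkhead factor of the ovary and eyelid, had 3.47 ± 1.19 CPM in CKO and 0.0893 ± 0.0598 CPM in controls (adjusted p 0.0211). Of 28 Polycomb subunit genes, all tested, 17 were positive and 1 passed in the same contrast, against the same shares of all genes, Bcor, a subunit of PRC1.1, at 137 ± 65.3 CPM in CKO and 49.2 ± 27.5 CPM in controls (adjusted p 0.0357). Both lists were drawn up with earlier results of these data known, so they are no independent evidence of direction.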

How the data were processed

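RNA was measured in 18 libraries of mouse femoral osteoblasts; the 8 CUT&Tag samples were not analysed here. The authors deposited raw counts per gene symbol, whole numbers with no normalization. The submitters' processing notes list HISAT2, Trim Galore and FastQC, with mm39 as the build. How reads were counted, with which annotation and whether by strand, is not given in the sources used here, so reads of overlapping or antisense genes cannot be told apart, and neither can near-identical paralogs. Groups come from the sample titles. Some marker genes are not reported here.

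From these counts, 16566 genes passed filterByExpr of edgeR (minimum count 10 and total 15) and were scaled by TMM. The test was the quasi-likelihood F test of edgeR (robust fit, 1 coefficient for each of 6 groups, 12 residual degrees of freedom), two-sided, with Benjamini-Hochberg adjustment over all genes tested and a threshold of 0.05. Unless another tool is named, p-values and log2 fold changes are from this test. The biological coefficient of variation was 51.9%. CPM values use TMM library sizes, and ± is the SD. A fold against a group with no counts was set against a floor of 3 counts over that group, which covers counting error only. Groups were called apart where no library of one reached into the range of the other.

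The factors, the other gene lists and the comparisons were chosen with earlier results of these data known. Named factors are those called in any comparison, the 4 of smallest p among those without overlap in each comparison, the 8 of highest mean CPM, and those near silent in controls that reach 1 CPM in 2 other libraries; Irx2 in single ages, Gata2, Gata3, Isl1, Pax1, Foxa2, Lhx9, and others outside this rule were chosen after their values were seen. Library sets were drawn from the Malat1 share, with libraries above 0.05% in set 3 and the rest parted by group label. Between libraries with the same number, deviations from the group mean had correlations of 0.276, 0.333 and 0.324 for CKO-YOUNG and CON-YOUNG. For CON-YOUNG and YOUNG they were 0.179, 0.355 and 0.343. Some unlike numbers correlated more, with 0.375 for CKO-YOUNG 1 with CON-YOUNG 2 and 0.377 for CON-YOUNG 1 with YOUNG 2. Replicate 3 is the set 3 library in each of these groups, so pairing by number cannot be told apart from library set. The replicate block used the numbers of the titles. OLD 1 and OLD 3 differed by a median squared difference of 6.26 times counting noise, against 16.1 to 179 in other pairs, and were kept as 2 libraries. Alternatives were RLE scaling, no filter, DESeq2, the compared groups alone, the replicate block, library set as a term or within sets, no set 1, and each library left out. Where an alternative is given with a number of factors at an unadjusted p under 0.05, the share of all genes was not computed. The test was tried on simulated counts before use. Neighbours and overlaps of genes come from a GRCm38 gene table, used for order alone. Tools were R 4.3.3, edgeR 4.0.16, DESeq2 1.42.0, Python 3.11.15 and matplotlib 3.10.9.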

Additional observations from a re-analysis of the deposited data

How the results depend on the processing

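DESeq2 called more factors than edgeR in each comparison, with 3 in CKO-YOUNG against CON-YOUNG (1.43% of all genes), 4 in CKO-OLD against OLD (1.1%), 6 in CKO over both ages (2.51%), 7 in CON-OLD-iBP against OLD (13.6%), 1 in CKO-OLD against CON-OLD-iBP (9%), 3 in OLD against YOUNG (0.249%), 5 in CON-YOUNG against YOUNG (12.8%) and 9 in old over young groups (22.5%), where edgeR called 0, 0, 0, 0, 0, 0, 1 and 3. Some of its calls have no counts in 1 group, such as Irx1 and Foxa2 in OLD against YOUNG, which rest on YOUNG 3 alone. In the compared groups alone edgeR called 1 in CKO over both ages (Barx1, with 0.554% of all genes) and 0 in CON-YOUNG against YOUNG (0.00665%). Without a filter it called 2 in old over young groups (7.5%). With library set as a term it called 0 in CON-YOUNG against YOUNG (0%) and 1 in old over young groups (0.151%). For Gata3, CON-YOUNG had no counts in set 2, and in set 3 CKO-YOUNG was lower than CON-YOUNG (0.481 against 1.15 CPM). Within sets edgeR called 1 in CKO-YOUNG against CON-YOUNG (Gata3, 1.44%) and 5 in CKO-OLD against CON-OLD-iBP (18.7%). It also called 1 in OLD against YOUNG (Sox11, 0.26%) and 1 in old over young groups (0.712%). Without the set 1 libraries it called 0 in CON-YOUNG against YOUNG and 0 in old over young groups. Within sets CON-YOUNG against YOUNG rests on CON-YOUNG 3 and YOUNG 3 alone, and with the set term these groups meet directly only in set 3, so its lost call there says nothing on stability. The cause of the other shifts was not tested.

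With the replicate number as a block, libraries of the same number were treated as pairs. No factor was then called in any comparison of single groups or in CKO over both ages. Tbx4 in CON-YOUNG against YOUNG was thus lost (0 in place of 1), and 2 factors were called in old over young groups (15.4% of all genes). In the comparisons among young groups the block also carries library set. Leaving out each library in turn gave 0 to 1 factors in CKO-YOUNG against CON-YOUNG, 0 to 1 in CKO-OLD against OLD, 0 to 2 in CKO over both ages, 0 to 2 in CON-OLD-iBP against OLD, 0 to 0 in CKO-OLD against CON-OLD-iBP and in OLD against YOUNG, 0 to 6 in CON-YOUNG against YOUNG and 2 to 15 in old over young groups. Of the results for single named factors under all alternatives, 405 kept direction and side of the threshold, 16 passed it newly, 32 no longer passed it and 0 changed direction. These factors were chosen from the same data, as called or as not overlapping, so a change of direction was unlikely from the start. Most were not called in the main fit, so keeping the side of the threshold mostly means staying uncalled. These numbers are therefore no evidence of stability. Limits are the spread within groups, the mixing of library set and sex with age, mouse line, genotype and treatment, factors with few counts, and unknown strand.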

Other observations

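Several Polycomb subunit genes differed between old and young cells in the contrast added after the values were seen, which mixes age with mouse line, deletion and iBP. Of 28 such genes, 5 were lower and 1 higher in old cells (3.86% of all genes were called higher and 7.94% lower). Ezh2, the PRC2 methyltransferase, had 18.8 ± 6.81 CPM in old and 39.1 ± 19.8 CPM in young libraries (SD, n = 9 each; edgeR adjusted p 0.0270). Rybp, a subunit of variant PRC1, had 21.9 ± 3.99 CPM in old and 37.5 ± 13.5 CPM in young libraries (adjusted p 0.0274). Cbx2, a subunit of canonical PRC1, had 3.02 ± 0.988 CPM in old and 9.13 ± 5.38 CPM in young libraries (adjusted p 0.0162). Pcgf1, the subunit that defines PRC1.1, was the gene called higher, at 10.7 ± 3.58 CPM in old and 6.46 ± 2.00 CPM in young libraries (adjusted p 0.0254). The 6 genes lower in old cells without overlap, other than Sox11, included 3 collagen genes, Col1a1, Col1a2 and Col5a2. In OLD against YOUNG, where no gene was called, 15 of the 28 Polycomb genes had a positive log2 fold change (median 0.05). Between the young control groups, CON-YOUNG against YOUNG, 20 of the 28 were positive (median 0.26, against -0.01 for all genes). There 2 were called higher in CON-YOUNG, Cbx6 and Phc1, where 5.55% of all genes were called.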
